A study of Bos taurus with 8 samples.

Results

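Of the 43794 probes on the EmbryoGENE cattle array, 954 carry as their gene symbol only the letters LOC and a gene number, and these probes, which stand for 905 loci, are described here in Holstein and Jersey embryos. They were chosen by their symbol in the array annotation alone, with no measured value. A further 20836 probes carry other gene symbols and 22004 carry none. The embryos were recovered by flushing the uterus 6 days after insemination, for which semen was pooled. Per the labels, the Holstein embryos are of good cryotolerance and the Jersey embryos do poorly after freezing. Donors of both breeds had follicles over 8 mm aspirated, and were superovulated with 400 mg of follicle-stimulating hormone in all, the closing doses of which were given together with 500 µg of a prostaglandin analogue. RNA of both breeds was amplified in 2 rounds and hybridised together on each of 8 arrays, as 4 pairs in which the dyes were exchanged. The number of animals or embryos in a replicate is not given in the sources used here, so p-values measure only the spread between these 4 pairs, which may be technical.

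A LOC symbol is the placeholder that a gene database gives to a locus predicted from the genome sequence for which no approved name exists. Such loci include members of expanded gene families, long non-coding RNAs, and pseudogenes, which are copies of a gene that no longer encode its full protein. Processed pseudogenes arise when a messenger RNA is copied back into the genome, often from a gene that is highly expressed, and their sequence can stay so close to the parent's that an array probe may hybridise to both.

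All 954 probes were matched by gene number to the RefSeq table of the assembly ARS-UCD2.0, and all still have a LOC symbol there. RefSeq lists 675 probes (634 loci) as protein-coding, 217 as pseudogenes, 33 as long non-coding RNAs, 22 as other transcripts (misc_RNA) and 7 as V segments of antigen receptor genes. Of the protein-coding probes, 108 have a curated RefSeq transcript and 567 a predicted one only, while 207 of the pseudogene probes have no RefSeq transcript. The X chromosome holds 102 LOC probes, 10.7% of them, against 3.11% of the probes with other symbols. Chromosome 18 holds 73, 7.65% against 5.07%. Another 46 lie on sequence with no known chromosome, 4.82% against 0.15%. One probe stands for 868 of the loci, so for most of them no second probe can be compared. Neither the probe sequences nor coordinates of the probes' own build were used here, so a locus is placed only by its chromosome and its nearest named genes in RefSeq.

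Pseudogene probes were the brightest of the LOC probes, and the protein-coding LOC probes were dim. The mean log2 intensity over both dyes and all arrays had a median of 10.8 over the pseudogene probes and 7.27 over the protein-coding LOC probes, against 7.53 over probes with other symbols. These are signals of probes and not amounts of RNA, since each probe binds with its own strength. A probe was taken as above background in a breed's channel when its signal exceeded the mean plus 2 SD of 153 negative control spots. Both channels of all 8 arrays were above background for 65.9% of the pseudogene probes, and for 20.9% of the protein-coding LOC probes, against 38.7% of the probes with other symbols. In all, 710 LOC probes (74.4%, of 678 loci) were above background for at least one breed on 4 or more arrays and were kept for testing. They were 479 protein-coding, 194 pseudogene, 21 long non-coding RNA and 16 other probes. Of the probes with other symbols 77.0% were kept.

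The brightness of the pseudogene probes was spread widely, from 7.44 at the lower quartile to 14.0 at the upper, while that of the protein-coding LOC probes spanned 7.02 to 7.75 and that of probes with other symbols 7.11 to 9.0.

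RNA of the breeds gave a signal above background on all 8 arrays for nearly the same number of LOC probes, 331 in Holstein and 328 in Jersey. Of the pseudogene probes 68.2% were so detected in Holstein and 67.3% in Jersey, of the protein-coding LOC probes 25.3% in Holstein and 24.7% in Jersey, and of the long non-coding RNA probes 27.3% in Holstein and 30.3% in Jersey. At the looser limit of 4 of 8 arrays, 688 LOC probes were above background in Holstein and 587 in Jersey, with 123 reaching it in Holstein only and 22 in Jersey only. The other 565 kept LOC probes reached it in both breeds. This gap ran over the whole array. The limit was reached by 72.1% of LOC probes in Holstein and 61.5% in Jersey. Over all 43794 probes it was reached by 71.2% in Holstein and 63.8% in Jersey, by 4179 in Holstein only and 947 in Jersey only. On array 7, of the fourth pair, 41.9% of all probes were above background in Holstein (Cy5) and 42.9% in Jersey (Cy3). On the other 7 arrays the Cy3 channel, whichever breed it held, had 69.4% to 80.9% above background and the Cy5 channel 47.6% to 63.2%. Of the LOC probes detected on 4 or more arrays in Holstein, 108 were above it on exactly 3 arrays in Jersey. Without both arrays of the fourth pair, at 3 of 6 arrays, the counts were 722 in Holstein and 740 in Jersey, with 22 in Holstein only and 40 in Jersey only, so the direction of the gap turned. It turned over all probes too, with 32705 in Holstein and 33372 in Jersey, 1069 in Holstein only and 1736 in Jersey only.

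Each array gave a log2 ratio of Holstein over Jersey, and the 2 arrays of a pair were averaged. Over the 710 kept LOC probes the median was -0.0098, against 0.0022 over all 32129 kept probes and 0.011 over those with other symbols. The medians of the 4 pairs were -0.013, -0.039, -0.0015 and -0.014. The difference from probes with other symbols was not tested. Single probes varied more: the range over the 4 pairs had a median of 0.38 over LOC probes and exceeded 2 for 13 of them.

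No LOC probe passed an adjusted p of 0.05 on the 4 pair means (limma, Benjamini-Hochberg over all kept probes), and neither did any other probe, 0.0% of those tested. The smallest adjusted p of a LOC probe was 0.068. At an unadjusted p under 0.05 there were 93 LOC probes, 13.1% of them, against 14.0% of all kept probes and 15.0% of those with other symbols (8.29% higher in Holstein and 6.76% higher in Jersey). Of the 93, 25 were higher in Holstein and 68 higher in Jersey, where 6.61% of all kept probes were higher in Holstein and 7.34% higher in Jersey. With probes of other symbols weighted to the same intensity, 13.0% would have met the limit, against the 13.1% observed, so the share of LOC probes below that limit was near the background. Their directions were split otherwise: 3.52% of LOC probes were higher in Holstein and 9.58% in Jersey, against 7.02% higher in Holstein and 5.94% higher in Jersey among probes with other symbols at the same intensity. Of the protein-coding LOC probes 13 (2.71%) were higher in Holstein and 46 (9.60%) in Jersey. Probes with other symbols at their intensity had 5.91% higher in Holstein and 4.90% higher in Jersey. Of the pseudogene probes 12 (6.19%) were higher in Holstein and 19 (9.79%) in Jersey. At their intensity the shares were 9.80% higher in Holstein and 8.62% higher in Jersey, so the Jersey share of pseudogene probes was near the background. The size of the split depended on the second pair and on the normalization. Without the second pair 28 LOC probes were higher in Holstein and 40 in Jersey, and the pseudogene probes turned to 16 higher in Holstein and 12 in Jersey. Probes with other symbols then had 1176 higher in Holstein and 913 in Jersey. With the arrays centred on their median in place of the intensity-dependent loess curve, LOC probes were split 46 higher in Holstein and 47 higher in Jersey, pseudogene probes 32 higher in Holstein and 11 in Jersey. Probes with other symbols were then split 1751 higher in Holstein and 690 in Jersey, against 1329 higher in Holstein and 1084 in Jersey with loess. Protein-coding LOC probes then had 14 higher in Holstein and 32 higher in Jersey. With the deposited table of log2 ratios pseudogene probes had 22 higher in Holstein and 19 in Jersey. Of the LOC probes that met the limit, 73.1% were on the Jersey side, against 44.9% of those with other symbols. The shares were 58.8% against 43.7% without the second pair, and 50.5% against 28.3% with median centring. With the deposited table they were 64.2% against 40.6%. In the same order of settings, pseudogene probes had 61.3%, 42.9%, 25.6% and 46.3%. These differences were not tested.

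Most probes that met the limit had medium or high intensity, among LOC probes and among those with other symbols. Among LOC probes the Jersey side was the larger in the dimmer and in the brighter classes. Kept probes with a gene symbol, LOC symbols included, were put into 10 equal classes by intensity. In the 4 dimmest classes, the same limit on p was met by 3 of 351 LOC probes on the Holstein side and by 8 on the Jersey side, against 171 on the Holstein side and 144 on the Jersey side of 6347 probes with other symbols. In the 6 brighter classes, it was met by 22 of 359 on the Holstein side and by 60 on the Jersey side. Of 9687 probes with other symbols in the brighter classes, 1158 were on the Holstein side and 940 on the Jersey side. In the eighth class, where the shares of LOC probes were highest, 4 of 36 LOC probes (11.1%) were higher in Holstein and 10 (27.8%) in Jersey. Of its probes with other symbols 16.0% were higher in Holstein and 12.8% in Jersey. The brightest class, which holds 93 of the 194 kept pseudogene probes, had 6.15% of its LOC probes on the Holstein side of this limit and 13.1% on the Jersey side, where its probes with other symbols had 11.0% on the Holstein side and 10.1% on the Jersey side.

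A second fit used the 8 arrays singly, taking out a dye effect and treating pairs as random blocks. Here 27 LOC probes of 26 loci passed an adjusted p of 0.05, 8 higher in Holstein and 19 higher in Jersey, which is 3.82% of the 706 LOC probes tested in this fit against 3.77% of all probes tested. By direction, 1.64% of all probes tested were higher in Holstein and 2.14% higher in Jersey. The 27 were 18 protein-coding probes, 8 pseudogene probes and 1 long non-coding RNA. All 27 had the same direction in the 4 pairs and 23 of them on all 8 arrays, against 22.0% of all kept probes with the same direction in the 4 pairs. As the 27 were chosen by their p on these same arrays, this agreement is not separate evidence. Of the 27, 25 were kept through both breeds. With median centring the fit gave 13 higher in Holstein and 12 higher in Jersey. Leaving out the third pair left 11 passing, and leaving out the fourth gave 44. Shares over all probes are not given for these refits, so their counts are not read as a result about LOC probes. This block fit assumes 1 correlation of 0.31 between the arrays of a pair for every probe, and its adjusted p-values are given beside those of the pair means.

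The protein-coding locus with the largest difference was LOC618696, which lies on chromosome 13 between SPINT3, a Kunitz-type protease inhibitor, and TKDP1, a trophoblast Kunitz domain protein of ruminants. Its normalized log2 intensity in the 4 pairs was 8.38, 7.60, 7.80 and 8.31 in Holstein, against 9.37, 10.88, 11.21 and 10.19 in Jersey. Every Jersey value lay above every Holstein value, and the gap was smallest in the first pair. The log2 ratio averaged -2.39 ± 0.44 (moderated SE, 4 pairs), with an adjusted p of 0.15 on pair means and 0.0053 in the block fit. It was chosen for its size after its values were seen. The probe of TKDP1 itself had a log2 ratio of -2.11 ± 0.40, with -0.65, -2.54, -3.07 and -2.18 in the 4 pairs, the first pair again being the smallest. Whether the 2 probes bind one another's transcripts was not tested. Of the other LOC loci at this cluster, LOC616039, between the trypsin inhibitor gene PTI and WFDC2, had 3 kept probes at -0.35, -0.13 and -0.09, and the probes of LOC100196900 and LOC404103 were too dim to be tested.

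LOC768255, on chromosome 4 between GIMAP4 and GIMAP6, GTPases known from lymphocytes, was also higher in Jersey. Its intensities were 7.33, 7.47, 8.14 and 7.37 in Holstein, against 8.34, 9.11, 9.0 and 7.93 in Jersey. The groups overlapped, as the highest Holstein value exceeded the lowest Jersey value, but each pair had Jersey above Holstein. The log2 ratio was -1.02 ± 0.18, with an adjusted p of 0.14 on pair means and 0.0074 in the block fit. GIMAP4 had a larger difference of -2.99 ± 0.35 (adjusted p 0.089, and 0.0008 in the block fit), while GIMAP6 was at 0.11 ± 0.12. The other LOC locus of this cluster, LOC530077 beside GIMAP5, had 2 kept probes at -0.03 and 0.08. Of 3 leukocyte markers measured, PTPRC was above background on all arrays in both breeds, and PTPRC, CD3E and LYZ1 had log2 ratios of -0.16, -0.27 and -0.49. In the 4 pairs PTPRC had 0.07, -0.31, -0.26 and -0.14, and LYZ1 had 0.54, -1.66, -0.02 and -0.80. CD3E had -0.22, -0.12, -0.52 and -0.20. Their part in the result was not tested.

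LOC777594, on chromosome 29 between B4GALNT4 and IFITM1, a membrane protein induced by interferon that restricts virus entry, was among the brightest probes that differed. Its intensities were 13.96, 13.56, 13.05 and 12.75 in Holstein, against 14.65, 14.38, 14.05 and 13.87 in Jersey. The highest Holstein value lay just above the lowest Jersey value, while the ratio within each pair lay between -1.12 and -0.69. It averaged -0.91 ± 0.09 (adjusted p 0.079, and 0.0011 in the block fit). The other LOC locus beside IFITM1, LOC613699, was at -0.05.

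LOC515823, on chromosome 10 between SLC38A6 and TMEM30B, had 10.56, 11.15, 11.83 and 10.96 in Holstein, against 11.80, 12.30, 12.44 and 12.01 in Jersey. The groups overlapped at 1 Holstein value. Its log2 ratio was -1.01 ± 0.12 (adjusted p 0.089, and 0.0051 in the block fit). LOC518027, on chromosome 29 between HTATIP2 and the homeobox gene DBX1, had 9.80, 9.28, 9.89 and 9.75 in Holstein, against 10.82, 10.70, 10.78 and 10.28 in Jersey, with no overlap. Its ratio was -0.96 ± 0.15. LOC100299503, on chromosome 1 between ARHGEF26 and the small GTPase gene RAP2B, had a ratio of -0.77 ± 0.08, with all 4 pairs between -0.93 and -0.58.

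LOC782061 and LOC782922, both higher in Holstein, lie in the same gene cluster on chromosome 13, that of the aldo-keto reductases of the AKR1C family, which reduce steroids and prostaglandins. LOC782061, between UCN3 and AKR1C3, had 10.48, 10.41, 10.43 and 10.15 in Holstein, against 9.50, 9.42, 9.44 and 9.67 in Jersey. The groups did not overlap, and 3 pairs gave nearly equal ratios of 0.98 to 0.99, with 0.48 in the fourth. The mean was 0.86 ± 0.11 (adjusted p 0.093, and 0.0022 in the block fit). LOC782922, between AKR1C4 and 20ALPHA-HSD, which inactivates progesterone, had 9.59, 9.32, 9.21 and 9.54 in Holstein, against 8.88, 8.71, 8.86 and 8.32 in Jersey. Its ratio was 0.72 ± 0.15 (adjusted p 0.17, and 0.029 in the block fit), and here the fourth pair had the largest ratio, 1.22. AKR1C4 itself was at 0.03 ± 0.06. The 2 LOC probes may share sequence, and whether they bind each other's transcripts was not tested.

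LOC507055, on chromosome 3 between GBP4, an interferon-induced guanylate-binding protein, and KYAT3, had 8.29, 8.05, 8.53 and 8.53 in Holstein, against 7.30, 8.02, 7.53 and 7.75 in Jersey. The second pair showed almost no difference, at 0.03, and the other ratios were 1.00, 1.00 and 0.78. The mean was 0.70 ± 0.18 (adjusted p 0.21, and 0.037 in the block fit). GBP4 had -0.58 in that second pair and 0.65 to 1.49 in the others. Among the other LOC loci of the guanylate-binding cluster, LOC781710, between GBP1 and GBP4, was at -0.37, LOC786372, between LRRC8B and GBP5, was at -0.16 and below 0 on 7 of 8 arrays, and LOC511531, LOC510382 and LOC783604 had kept probes at 0.20, 0.04 and 0.04. Smaller ratios above 0 were found for LOC615521 (0.45 ± 0.11), LOC100297097 (0.41 ± 0.09) and LOC100297222 (0.36 ± 0.08), each on the same side on 8 of 8 arrays.

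Among the pseudogenes, LOC783612 on chromosome 2 lies between PTPRN and RESP18, both of which encode proteins of secretory granules. Its intensities were 10.16, 9.69, 9.999 and 10.12 in Holstein, against 10.70, 10.68, 10.78 and 10.86 in Jersey, with no overlap. The ratio was -0.76 ± 0.09 (adjusted p 0.089, and 0.0025 in the block fit). RESP18 had -1.14 ± 0.25 and was below 0 on 8 of 8 arrays, while PTPRN was at -0.15 ± 0.11. LOC100296475, a pseudogene on chromosome 24 that overlaps the ubiquitin ligase gene RNF165, had 13.06, 12.84, 12.97 and 12.94 in Holstein, against 13.82, 14.00, 13.68 and 13.54 in Jersey. Its ratio was -0.80 ± 0.11 (adjusted p 0.096, and 0.0044 in the block fit).

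LOC614114, a pseudogene on chromosome 22 that overlaps CDCP1, had 2 kept probes, both below 0, at -0.42 ± 0.07 and -0.34. CDCP1 itself was at 0.09 ± 0.16. The pseudogene LOC783463 on chromosome 20, at -0.42 ± 0.08, was below 0 in each pair but on only 5 of 8 arrays, with 3 of the 4 arrays that held Holstein in Cy5 above 0, and it had an adjusted p of 0.14 in the block fit.

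Pseudogenes higher in Holstein included LOC786046, placed on no chromosome, with 7.83, 7.46, 7.29 and 7.84 in Holstein, against 6.95, 6.91, 6.71 and 6.98 in Jersey. It was above background on 7 of 8 arrays in Holstein and on 3 of 8 in Jersey, so it was kept through Holstein alone. Its ratio of 0.72 is set against a Jersey signal that was mostly not above background, and is given as a description with no test. LOC615206 on chromosome 26, between MBL2 and the Wnt antagonist DKK1, was at 0.59 ± 0.15, while DKK1 was at -0.37 ± 0.07. LOC100335253 on chromosome 10, which overlaps TRIM9, had a ratio of 0.30 ± 0.06 that varied little, from 0.25 to 0.34 over the pairs.

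The long non-coding RNA LOC787709, placed on no chromosome, had the smallest p of all LOC probes. Its intensities were 7.45, 7.71, 7.73 and 7.58 in Holstein, against 8.76, 8.91, 9.07 and 8.71 in Jersey. Every Jersey value lay above every Holstein value. The ratio was -1.24 ± 0.07 (adjusted p 0.068, and 0.0004 in the block fit). A second kept probe of the same locus gave 0.09, so the difference was seen by only 1 of its probes. That second probe was dimmer, with a mean log2 intensity of 7.24 against 8.24. Whether it could have shown the difference was not tested. LOC100295797, which overlaps the peroxisomal enzyme gene HSD17B4 on chromosome 7, was at 0.24, and HSD17B4 at 0.44 ± 0.09. LOC100295797 was above background on 5 of 8 arrays in Holstein and on 2 of 8 in Jersey. LOC100174924, a lncRNA on chromosome 9 with 3 kept probes, was at 0.09, 0.05 and -0.10, none of them beyond its error. Of the misc_RNA loci, LOC789694 was at -0.37 ± 0.09. LOC524499 was at -0.21 and was above background on 2 of 8 arrays in Holstein and on 7 of 8 in Jersey.

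Probes of the same locus did not always share a direction. Kept probes of a locus also differed in mean log2 intensity, by a median of 0.70 and at most 5.20. Of the 27 loci with at least 2 kept probes, 14 had all probes on the same side of 0, and the spread between their probes had a median of 0.21. It was largest for LOC100300478 on chromosome 18, between the zinc finger gene ZNF175 and SPACA6, a sperm protein needed for fusion with the egg. One of its probes had 7.09, 7.75, 7.65 and 8.04 in Holstein, against 10.79, 10.35, 6.87 and 10.34 in Jersey. Jersey was far higher in 3 pairs and lower in the third, so the ratio of -1.95 ± 0.73 had an adjusted p of 0.33. The other 2 probes were at -0.07 and -0.02, and were dimmer, with mean log2 intensities of 7.29 and 7.20 against 8.56. The probes of LOC516108 on chromosome 25 were all below 0, at -0.35, -0.21 and -0.11, and those of LOC511229 on chromosome 1, beside IL12A, were all above it, at 0.58, 0.05 and 0.03.

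Some large ratios varied widely over the pairs. LOC783508 had 13.69, 7.64, 12.45 and 10.76 in Holstein, against 13.04, 12.67, 12.57 and 12.54 in Jersey. Jersey levels varied little and Holstein levels widely, and the mean of -1.57 ± 0.95 had an adjusted p of 0.56. LOC786987 on chromosome 23 had 7.30, 7.44, 6.92 and 7.52 in Holstein, against 7.08, 7.15, 11.08 and 9.23 in Jersey, so that here 2 Jersey replicates were high. LOC100301263 beside NLRP2, a gene of the oocyte and early embryo, had 0.83 ± 0.29 on one probe and -0.0027 on the other. The latter was dimmer, at 7.38 against 7.87, and above background on 5 of 8 arrays in Holstein and on 4 of 8 in Jersey. These 3 loci were chosen for their size after their values were seen.

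Only LOC508455, on chromosome 18 between BLOC1S3 and EXOC3L2, and LOC786530, an X-linked pseudogene, were above background on at least 6 of 8 arrays in one breed and at most 1 in the other. LOC508455 was above background on 6 of 8 arrays in Holstein and on 0 of 8 in Jersey, so it was kept through Holstein alone. It had 8.08, 8.19, 6.44 and 7.62 in Holstein, against 6.11, 6.26, 6.49 and 6.79 in Jersey, and the third pair showed no difference. Since it was not above background in Jersey, Holstein was on average over the 4 pairs at least 1.86-fold higher, given as a description with no test. This does not hold for each pair, as the log2 ratio averaged 1.95 on slide 228 and 0.39 on slide 229. The fold of 1.86 sets the Holstein mean against, per array, the higher of the dimmest signal above background and the probe's own signal in Jersey. LOC786530 was above background on 1 of 8 arrays in Holstein and on 7 of 8 in Jersey. It was kept through Jersey alone, and its ratio of -0.82, set against a Holstein signal mostly not above background, is given as a description with no test.

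Genes of the X chromosome with other symbols were mostly higher in Jersey, and the LOC probes on X lay closer to 0. Of 469 kept X-linked probes with other symbols, XIST left out, 76.5% were below 0 with a median of -0.17, whereas of 75 X-linked LOC probes 56.0% were below 0 with a median of -0.028. Among probes of the brighter 6 deciles, 37 LOC probes had a median of -0.064 with 64.9% below 0, against -0.44 and 88.0% for 274 probes with other symbols. The difference between these groups was not tested. Autosomal LOC probes had a median of -0.0068. At an unadjusted p under 0.05, 3 of the 75 X-linked LOC probes were higher in Holstein and 12 (16.0%) in Jersey, while of the 469 X-linked probes with other symbols 7 were higher in Holstein and 173 (36.9%) in Jersey. LOC534630, between the receptor genes HTR2C and IL13RA2, was the X-linked locus with the clearest values, with 2 probes at -0.43 ± 0.09 and -0.87 ± 0.19, both below 0 on 8 of 8 arrays. LOC615809, between SMIM10 and RTL8C, was at -0.98 ± 0.25. The X-linked pseudogene LOC100298410 went the other way, at 0.23 ± 0.06, while its neighbour ZC4H2 was at -0.36 ± 0.08. LOC100298830, which RefSeq places on the Y chromosome between PLCXD1 and CRLF2, genes that in humans lie in the pseudoautosomal region shared by X and Y, had 2 kept probes at 0.15 and 0.15, with adjusted p-values of 0.42 and 0.61.

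RefSeq places 861 of the loci on a known chromosome, and 127 of them overlap a gene with another symbol. In 64 such cases both were measured, and in 22 of these the ratios had the same sign. Of the families seen next to LOC loci, the 50 loci beside zinc finger genes had 48 kept probes with a median of -0.0052, of which 0 were higher in Holstein and 4 (8.33%) in Jersey at an unadjusted p under 0.05. Over all kept probes these shares were 6.61% higher in Holstein and 7.34% higher in Jersey. The 18 loci beside interferon genes had 11 kept probes with a median of -0.0023 and none in either direction, and the 7 beside pregnancy-associated glycoprotein genes, made by the ruminant trophoblast, had 5 with a median of -0.0022 and 1 higher in Jersey. Of 48 loci beside olfactory receptor genes, 28 probes were kept, with 1 (3.57%) higher in Holstein and 2 (7.14%) in Jersey.

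The cell types of the samples were checked by their markers. PDGFRA, CYP19A1 and PIGR have 3 probes each, and TEAD4, PTPRC and LYZ1 have 2 each. For each of these genes the values of 1 probe are given. Trophectoderm markers were above background on all arrays in both breeds for 4 of 6 genes, inner cell mass markers for 2 of 3 and primitive endoderm markers for 2 of 3 measured. CDX2, GATA3, GATA2, KRT8, KRT18 and TEAD4 of trophectoderm had mean log2 ratios of 0.21, -0.19, 0.30, -0.10, -0.44 and -0.17. POU5F1, NANOG and SOX2 of the inner cell mass were at -0.23, 0.40 and 0.07. NANOG varied widely, with 1.97, -1.58, 2.12 and -0.92 in the 4 pairs. The primitive endoderm markers GATA4 and PDGFRA, both above background on all arrays, had log2 ratios of 0.50 and 0.77 and were higher in Holstein in each of the 4 pairs. SOX17, the other one measured, was above background on 5 of 8 arrays in Holstein and on 4 of 8 in Jersey, and had -0.26, 0.14, -0.04 and 0.05 in the 4 pairs. Of 4 red blood cell markers HBA and ALAS2 were above background on all arrays in both breeds, and all 4 had mean ratios below 0. The first 2 pairs are those of slide 228. HBG had ratios of -4.22, -3.84, 0.13 and 0.16 in the 4 pairs, HBB of -2.24, -1.79, -0.02 and 0.05, and HBA of -1.12, -0.80, -0.04 and -0.43. ALAS2 went the other way by slide, at -0.33, 0.44, -1.66 and -0.95. None of the cumulus or uterine markers was above background on all arrays in both breeds, but 2 of the 3 cumulus and granulosa markers were higher in Holstein in each pair. CYP19A1 was above background on 8 of 8 arrays in Holstein and on 7 of 8 in Jersey, at 0.54, and INHBA on 8 of 8 in Holstein and on 4 of 8 in Jersey, at 0.79. The uterine markers OVGP1 and PIGR were at -0.22 and 0.12. The part of these cell types in the LOC results, those higher in Holstein included, was not tested.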

How the data were processed

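The scanner files deposited by the authors give each spot's raw foreground and local background intensity in Cy3 and Cy5, with no correction, per the file headers. A further deposited column of the kind other marks spots ignored at quantification (131 spots), per the file headers. A table of log2 ratios for each array was also deposited by the authors, made in a way not given in the sources used here. Its values correlated at -0.988 to -0.978 with the Holstein over Jersey ratios of the scanner files, so its sign was turned for use as an alternative.

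Intensities were corrected by normexp (offset 50), normalized by loess within arrays with control spots at weight 0, and tested in limma 3.58.1 (R 4.3.3), with lmFit and eBayes on 4 pair means against 0 and, as a second fit, on the 8 arrays singly with dye in the model and pairs as a random replicate block (duplicateCorrelation). The labels do not give the pairs. They were taken as the matching with the highest residual correlations of 24, 0.46 to 0.71 within pairs and -0.35 to -0.02 otherwise. Pairs 1 and 2 lie on slide 228, pairs 3 and 4 on slide 229. Of 43794 probes, 32129 were kept (mean plus 2 SD of negative controls on at least 4 arrays), 14019 of them bright in both dyes on every array. The number of arrays limits the precision.

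In 1 set of simulated data the block fit called more unchanged probes than its threshold allows, so its calls are given as a second description and not in place of the pair means. Members and lists were chosen with earlier results of these data known. Named were, by direction, the 10 probes of smallest p, loci seen mainly in one breed, loci with 3 or more kept probes, X-linked probes and 2 probes per RefSeq class; a choice by RefSeq description could not be made. Every other locus named, the LOC neighbours in a named locus's cluster included, was chosen after its values were seen. Alternatives covered background, normalization, filter, value source, variance prior, slide and each pair left out. Symbols and neighbours come from RefSeq (ARS-UCD2.0).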

Additional observations from a re-analysis of the deposited data

Results flagged for a closer look

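In 3 of 53 probes or sets examined, one of the 4 pairs stood apart from the rest by Dixon's criterion for 4 values, where chance gives about 1 in 20. The LOC782061 probe EMBV3_21225 had 0.48 in the fourth pair, against 0.98 to 0.99 in the other pairs. The LOC516108 probe EMBV3_06799 had -0.27 in the first pair, against -0.06 to -0.04 in the others. The LOC100300478 probe EMBV3_24541 had -0.19 in the first pair, against 0.02 to 0.04 in the others.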

How the results depend on the processing

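On pair means, 0 LOC probes passed an adjusted p of 0.05 under every alternative run, except 27 with the random replicate block. Restricting the test to probes bright in both dyes on every array left 52 LOC probes at an unadjusted p under 0.05, 12 higher in Holstein and 40 in Jersey of 295 tested, and moved the median ratio to -0.052; in that set 48 of 14019 probes (0.342%) passed an adjusted p of 0.05, 0 of them LOC probes. Of the 8070 bright probes with other symbols, 829 were higher in Holstein and 697 in Jersey at the unadjusted limit. Leaving out a pair gave 67 to 97 LOC probes at an unadjusted p under 0.05 and 11 to 44 in the block fit. Shares over all probes are not given for these block refits. At that unadjusted limit the counts of probes with other symbols varied too. They were 1036 higher in Holstein and 783 in Jersey without the first pair, and 1176 higher in Holstein and 913 in Jersey without the second. The counts were 1013 higher in Holstein and 787 in Jersey without the third pair, and 1503 higher in Holstein and 1254 in Jersey without the fourth. With the deposited table the split of LOC probes was 34 higher in Holstein and 61 higher in Jersey. That of probes with other symbols was 1402 higher in Holstein and 957 in Jersey. Mean plus 3 SD as the limit for detection gave 601 LOC probes in Holstein and 477 in Jersey. Counts over all probes are not given at this higher limit, so the gap is not read as a result about LOC probes. At the main limit for detection the gap ran over the whole array, and its direction turned without the fourth pair. Of 48 probes examined singly, 39 kept their direction under all alternatives run on them; the restriction to bright probes held 28 of them, and slide as a term was run for the counts alone, giving 78 at an unadjusted p under 0.05. With a pair left out, the ratios that turned ranged from -0.15 to 0.0038 for LOC616039 EMBV3_13324, -0.34 to 0.13 for LOC616039 EMBV3_08542, -0.12 to 0.0027 for LOC100300478 EMBV3_28892, -0.042 to 0.035 for LOC100300478 EMBV3_24541, -0.037 to 0.19 for LOC100174924 EMBV3_00640, -0.30 to 0.062 for LOC100174924 EMBV3_02563, -0.077 to 0.15 for LOC100174924 EMBV3_40450, -0.040 to 0.11 for LOC511229 EMBV3_18753 and -0.065 to 0.085 for LOC511229 EMBV3_38936. EMBV3_02563 was at 0.0077 with median centring, and EMBV3_38936 at -0.027 without background correction and -0.021 with the deposited table; the cause was not tested. The alternatives without X-linked probes (78 probes), with the brightest probe per locus (89) and the detection counts without the fourth pair were chosen after seeing the data. No counts of other probes are given beside the 78 and the 89, so they are not read as a result about LOC probes. Without the filter on dim probes all 954 LOC probes were tested, with 0 passing an adjusted p of 0.05 and 104 at an unadjusted p under 0.05. Of the 20836 probes with other symbols, 1504 were then higher in Holstein and 1298 in Jersey at that unadjusted limit.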
